A study of Mus musculus with 30 samples.

Results

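Germinal centre (GC) B cells that carried IgG1 and no GFP were compared with naive B cells, both from infected mice, with 3 arrays for each, which makes 6 of the 30 arrays of the study. The members of the comparison were chosen by their labels alone, and gene names come from the probe sets that the platform annotation pairs with a single gene symbol, 21640 of 34760. All animals were CeGFP BALB/c mice, which carry an IRES-GFP knock-in behind the exons of membrane IgE. They had been infected with the gut worm Nippostrongylus brasiliensis, and mesenteric lymph nodes were taken on day 10. Per the labels, the GC cells were sorted as IgG1+ GFP- B220+ CD95+ CD138-, and the naive cells as B220+ CD95- CD138- IgG1- IgE-. IgG1 cells without GFP lack the mark that, per the study's design text, goes with a rearrangement to the epsilon locus. IgD and CD38 are not named in the naive gate. Each array held RNA of 3 pooled mice from an independent sort, amplified from 2 ng. The first experiment also held GFP-positive IgG1 GC cells, IgE GC cells and plasma cells (18 arrays in all), and the second held dark zone (DZ) and light zone (LZ) cells of the IgG1 germinal centre (12 arrays).

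Naive follicular B cells are resting cells that recirculate between blood and lymphoid follicles, guided by sphingosine-1-phosphate and chemokine receptors. After antigen contact and T cell help some of them enter the germinal centre, where they divide fast, mutate their antibody genes and compete for further help. In the dark zone they divide and mutate, and in the light zone they test the mutated receptor against antigen. BCL6 is the repressor that holds this state.

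Values are log2 signals from normalized arrays, so that a difference of 1 is a 2-fold change. Genes brighter than the array median on 2 or more arrays of the first experiment were tested in limma, with an adjusted p under 0.05 as the threshold for a call. The fit used all 18 arrays of that experiment. The naive arrays varied more than the GC arrays. Their correlations with each other were 0.891 to 0.927 against 0.972 to 0.975 among the GC arrays, the median SD was 0.342 against 0.161, and the SD was larger in the naive group for 80.0% of genes. Array medians were 5.28 to 5.31 in GC and 5.38 to 5.47 in naive cells. A fit of the 6 arrays alone, which uses only their own spread, is therefore given beside the groups of genes. The SE and adjusted p of single genes against naive cells come from the fit of 18 arrays unless stated. Its shared spread takes no account of the larger one of the naive arrays.

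Of 12098 genes tested, 3606 differed (29.8%), 2475 higher in GC cells (20.5%) and 1131 lower (9.35%). At least 2-fold were 1428 higher genes (11.8%) and 286 lower genes (2.36%). With only the 6 arrays in the fit, 1646 genes were higher and 415 lower, and of the genes named above 1607 and 392 were also called there. List counts of that fit stand beside these numbers of 12098 genes, which are smaller shares than 20.5% and 9.35%. All 3 GC arrays lay above all 3 naive arrays for 3142 genes (26.0%) and below them for 2073 (17.1%). The median difference over all genes tested was 0.07. Higher genes had a median level of 8.29 in GC and 6.96 in naive cells, and lower genes 5.59 and 6.35. Over all genes tested these medians were 6.87 and 6.57.

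**Figure D1:**
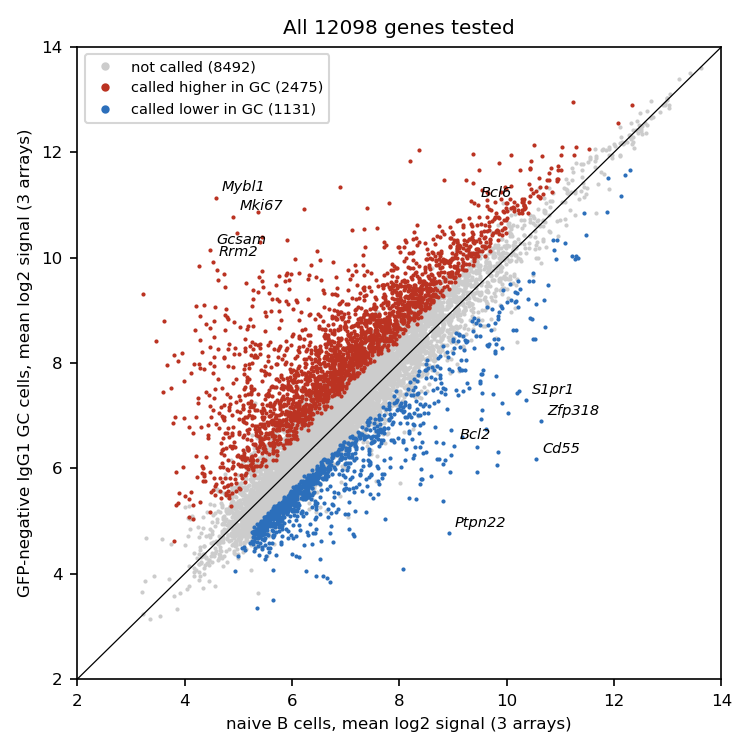
Mean log2 signal of each gene tested in naive B cells (x axis, 3 arrays) and in GFP-negative IgG1 GC cells (y axis, 3 arrays); red points are the 2475 genes called higher, blue points the 1131 called lower, and the line marks equal levels. The red points reach further from the line (Mybl1, 6.56) than the blue ones (Cd55, -4.39).

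The sort markers were checked first. Fas, which encodes the sort marker CD95, was at 8.66, 8.76 and 8.65 on the GC arrays and at 5.02, 6.36 and 3.74 on the naive arrays. Ptprc, whose product carries the B220 epitope, was at 11.54 ± 0.07 in GC and 11.40 ± 0.13 in naive cells (SD, n = 3 each). Sdc1, which encodes CD138, was near the floor in both groups (4.62 ± 0.04 and 4.59 ± 0.15). These values follow the gates and are no finding.

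The germinal centre programme was higher as a whole. All 12 tested members rose, with a median difference of 3.50, and all 12 were called in the fit of the 6 arrays too. Of all genes tested 20.5% were higher. Fas is among them and follows the sort gate. Mybl1, a MYB family transcription factor of germinal centre cells, was at 11.01, 11.12 and 11.28 on the GC arrays and at 4.98, 4.52 and 4.23 on the naive arrays. It had the largest fitted difference of all genes tested, 6.56 (SE 0.27, adjusted p = 4.53e-11). Gcsam, an adaptor that modulates receptor signalling and motility in GC cells, was at 9.90, 10.19 and 10.33 against 4.60, 4.38 and 4.45 (5.67, SE 0.21). The naive arrays showed neither transcript above the array median, so for them, as for other genes this dim in naive cells, the size of the difference and its rank are uncertain.

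Bcl6, unlike Mybl1 and Gcsam, was above the array median on all 6 arrays. So were S1pr2, Basp1, Neil1, Ezh2 and Efnb1. Bcl6 was at 11.17, 10.88 and 11.04 on the GC arrays and already at 8.83, 9.73 and 9.62 on the naive arrays, a difference of 1.64 (SE 0.38, adjusted p = 0.00446). The groups did not overlap, and the lowest value was that of naive replicate 1. Rgs13, which dampens chemokine receptor signals, rose by 4.96 and S1pr2, the receptor that confines cells to the GC, by 1.76. Nuggc, a nuclear GTPase of GC cells, rose by 4.09, the DNA glycosylase Neil1 by 3.80, the plexin Plxnb2 by 3.15, the membrane protein gene Basp1 by 2.45 and the ephrin Efnb1, a ligand met by follicular helper T cells, by 2.32.

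**Figure D2:**
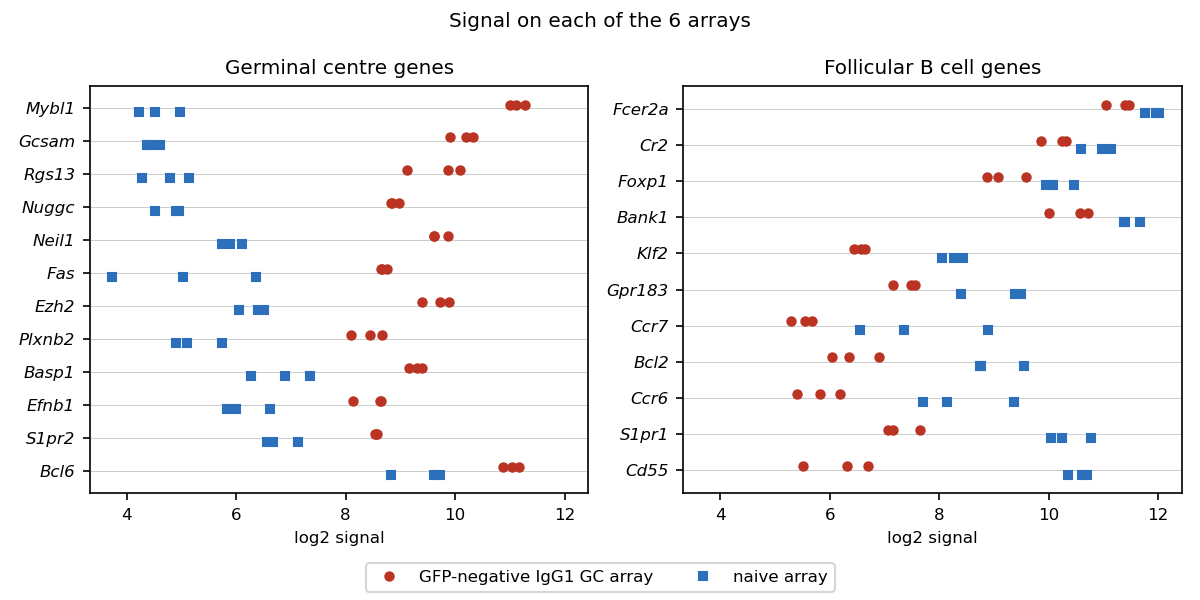
Log2 signal (x axis) on each of the 3 GFP-negative IgG1 GC arrays (red circles) and 3 naive arrays (blue squares) for the 12 germinal centre genes and the 11 follicular B cell genes tested. The groups do not overlap for any of the 23 genes, but for Fcer2a they lie close, with GC at 11.04 to 11.46 and naive at 11.75 to 12.02. Over all genes tested, the 3 GC arrays lay above the 3 naive arrays for 26.0% and below them for 17.1%.

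Genes of the resting follicular cell moved the other way. Of 11 tested, 10 fell and none rose (median -1.69), and 9 fell in the fit of the 6 arrays. Of all genes tested 9.35% were lower. Cd55, a surface regulator of complement, was at 6.31, 6.69 and 5.51 on the GC arrays and at 10.60, 10.69 and 10.36 on the naive arrays, a difference of -4.39 (SE 0.33, adjusted p = 4.39e-08) and the largest decrease of all genes tested. S1pr1, the receptor that leads lymphocytes out of lymph nodes, was at 7.16, 7.06 and 7.65 against 10.24, 10.78 and 10.04 (-3.07, SE 0.30). Klf2, the transcription factor that sustains S1pr1, was at 6.57, 6.44 and 6.65 against 8.43, 8.05 and 8.26 (-1.69, SE 0.24). Every naive array was above every GC array for these genes.

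The chemokine receptors Ccr6 (-2.60, SE 0.34) and Ccr7 (-2.10, SE 0.39) and the oxysterol receptor Gpr183 (-1.69, SE 0.28), which guide B cells to follicle edges and T cell zones, also fell. Ccr7 varied widely among the naive arrays, at 6.56, 8.89 and 7.36. The transcription factor Foxp1 fell by 0.99. The member that was not called was Fcer2a, the low-affinity IgE receptor CD23, at 11.30 ± 0.23 and 11.91 ± 0.14 (SD, n = 3 each; -0.61, adjusted p = 0.174). The complement receptor Cr2 was called at -0.76 (adjusted p = 0.0203), but not in the fit of the 6 arrays (adjusted p = 0.0562) nor without GC replicate 2 (adjusted p = 0.0925), naive replicate 2 (adjusted p = 0.0557) or naive replicate 3 (adjusted p = 0.0568). In bulk samples fewer cells of a type and less RNA per cell cannot be told apart.

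Transcripts of cell division genes set the groups apart on every array. All 42 tested genes of mitosis rose, in the fit of all 18 arrays and in that of the 6, with differences of 1.81 (Cenpa) to 5.87 (Mki67) and a median of 3.85. Among all genes tested 20.5% were higher in the fit of 18 arrays. Mki67, which coats mitotic chromosomes and marks cycling cells, was at 10.71, 10.74 and 10.91 on the GC arrays and at 4.87, 4.89 and 4.97 on the naive arrays, all below the array median (5.87, SE 0.12, adjusted p = 7.18e-15). Top2a, which untangles sister chromatids, was at 10.44, 10.40 and 10.57 against 5.36, 5.32 and 4.25 (5.50, SE 0.25). Ccnb2, a cyclin of mitotic entry, was at 10.06, 10.19 and 10.67 against 5.15, 5.12 and 5.97 (4.89, SE 0.28). No naive array reached the level of any GC array for any of these 3 genes.

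Other members cover each step of division. The checkpoint kinase Bub1 rose by 5.18, the kinetochore scaffold Knl1 (outside the list) by 5.14, the spindle protein Hmmr by 4.95, cyclin A2 (Ccna2) by 4.94, the spindle motor Kif11 by 4.93 and the condensin subunit Ncapg by 4.50. The mitotic kinases Plk1 and Aurkb rose by 4.39 and 3.14. The summed linear signal of the 42 genes was 23266 to 27995 on the GC arrays and 2058 to 2296 on the naive arrays.

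Promoters of these genes are shown because a short element was frequent in them. The CHR element, to which the DREAM and MYB-MuvB complexes bind in G2 and M phase genes, was searched as TTTGAA on both strands in a window from 250 bases before to 50 after the first listed start of each gene (RefSeq, GRCm38.p6). It was found in 27 of 35 mitosis genes with a promoter (77.1%), in 1146 of 9623 of all genes tested (11.9%), in 15.3% of the higher genes and in 10.6% of the lower genes. The CCAAT box, searched as CCAAT on both strands, was in 74.3% of mitosis promoters and 38.3% of all. The window holds both strands of each motif, a promoter may hold several motifs, and a match of letters is not a bound site. The 5 mitosis genes below are those among the 16 with the largest differences whose first listed promoter holds the element before the start. Capitals mark the element, which reads TTCAAA where it lies on the other strand.
Mki67 (chr7:135716460-135716489, minus strand, element 98 bases before the start): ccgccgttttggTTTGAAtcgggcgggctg
Top2a (chr11:99024195-99024224, minus strand, 23 bases before): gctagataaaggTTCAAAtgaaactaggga
Kif11 (chr19:37376351-37376380, plus strand, 19 bases before): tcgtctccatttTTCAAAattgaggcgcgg
Ccnb2 (chr9:70421704-70421733, minus strand, 167 bases before): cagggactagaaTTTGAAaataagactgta
Ncapg (chr5:45669883-45669912, plus strand, 30 bases before): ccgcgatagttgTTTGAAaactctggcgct
The element lies in the last 30 bases before the start in Top2a, Kif11 and Ncapg and further away in Mki67 and Ccnb2.

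**Figure D3:**
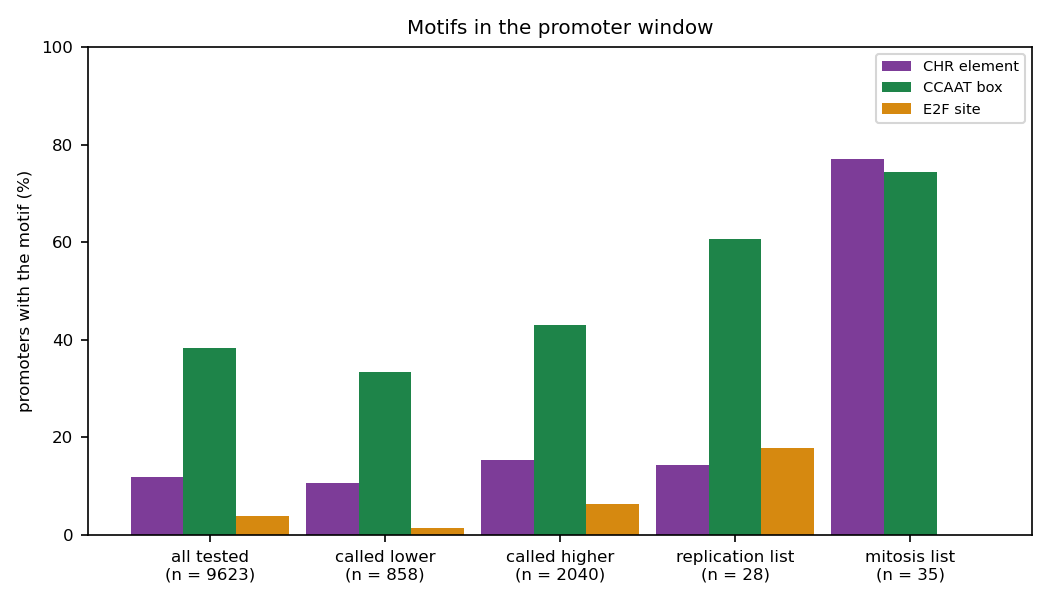
Percent of promoter windows (y axis) that hold the CHR element, the CCAAT box or the E2F site, in genes grouped by call and by list (x axis, with the number of promoters). The mitosis list stands at 77.1% for the CHR element against 11.9% of all genes tested, and at 0.0% for the E2F site against 3.98%.

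Replication genes rose nearly as a whole. Of 35 tested, 33 rose and none fell (median 2.34), and 31 rose in the fit of the 6 arrays. The share over all genes tested was 20.5% higher. Rrm2, the regulated subunit of ribonucleotide reductase, was at 9.77, 9.84 and 10.11 on the GC arrays and at 4.95, 4.39 and 4.22 on the naive arrays (5.39, SE 0.25, adjusted p = 1.46e-10). Its partner subunit Rrm1 rose by 3.78. The helicase subunits Mcm6 and Mcm3 rose by 3.68 and 3.47, the helicase activator Cdc45 by 3.45, the polymerase subunit Pola1 by 3.39 and the primase Prim1 by 2.22. The 2 that were not called were Pold1 (0.53) and the thymidine kinase gene Tk1, at 9.47, 8.99 and 9.53 against 9.86, 8.60 and 9.75, where the groups overlapped at a high level in both.

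The E2F site, bound by the E2F factors that start S phase, was searched as GGCGGGAA on both strands in the same windows. It was found in 5 of 28 promoters of the replication list (17.9%), in none of the 35 of the mitosis list and in 3.98% of all. In the higher genes it was found in 6.42% and in the lower genes in 1.40%. The CHR element was in 14.3% of replication promoters. The examples before a start are those of Rrm1 and Prim1, both with the site on the other strand, and capitals mark the site.
Rrm1 (chr7:102441617-102441646, plus strand, 67 bases before the start): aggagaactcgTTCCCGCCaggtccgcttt
Prim1 (chr10:128015185-128015214, plus strand, 15 bases before the start): tggaggcctgtcttgTTCCCGCCaattctc
Both sites lie closer to the start than the element of Mki67 does.

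Regulators of the cycle changed mostly upward, activators and inhibitors among them. Of 23 tested, 15 rose and 2 fell (median 1.52; 14 and 2 in the fit of the 6 arrays). The shares over all genes tested were 20.5% and 9.35%. E2f8, an E2F family repressor that acts in S phase, was at 8.54, 8.88 and 8.80 against 4.51, 4.49 and 4.16 (4.35, SE 0.18), its relative E2f7 rose by 1.99, and Foxm1, an activator of mitotic genes, rose by 3.38. Among the D cyclins, which couple growth signals to the cycle, Ccnd3 rose by 1.36 (9.77, 9.84 and 9.89 against 8.93, 8.43 and 8.05) and Ccnd2 fell by 1.39 (6.36, 6.31 and 7.07 against 7.07, 8.59 and 8.25). GC replicate 3 and naive replicate 1 were equal for Ccnd2 to 2 decimals. The kinase Cdk4 rose by 1.54. The retinoblastoma gene Rb1 fell by 1.75, and the CDK inhibitor Cdkn2c rose by 3.10.

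Of 20 quiescence genes tested, 9 fell and none rose (median -0.43; 8 fell in the fit of the 6 arrays). Among all genes tested 9.35% were lower and 20.5% higher. Without naive replicate 2, 3 rose and 9 fell. The CDK inhibitor Cdkn1b was at 6.79, 6.81 and 6.45 on the GC arrays and at 8.07, 8.52 and 8.52 on the naive arrays (-1.69, SE 0.22). The repressor Klf3 (-2.68), the stress-induced Sesn1 (-1.76), the glucocorticoid-induced Tsc22d3 (-1.55), the PI3-kinase inhibitor Pik3ip1 (-1.37) and the antiproliferative Btg1 (-1.01) also fell. Foxp1 and Klf2 are in this list as well as in the follicular one. Foxo1, which is active in dark zone cells as well as in resting cells, was not called (0.37).

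Transcripts of DNA repair genes were higher along several routes. Of the 15 hypermutation and excision repair genes tested, 13 rose and none fell (median 1.55), also in the fit of the 6 arrays, and 1 fell without GC replicate 2 or naive replicate 2. Of all genes tested 20.5% were higher. Hmces, which shields abasic sites in single-stranded DNA, was at 9.89, 10.23 and 10.25 on the GC arrays and at 6.0, 7.19 and 6.18 on the naive arrays (3.67, SE 0.30, adjusted p = 1.56e-07). Polh, the polymerase that writes mutations at A and T bases, was at 9.73, 9.52 and 9.84 against 6.25, 6.78 and 5.36 (3.57, SE 0.31). Both lay higher on every GC array than on any naive array. The exonuclease Exo1 rose by 2.49, the translesion polymerase Rev1 by 2.23, the uracil glycosylase Ung by 1.00 and its antagonist Fam72a by 2.05. Smug1, a second uracil glycosylase, was not called (-0.46), nor was the mismatch repair gene Pms2 (0.65).

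Of 14 end joining genes, 10 rose and none fell (median 0.80), but 6 in the fit of the 6 arrays. That count was also 6 without any of the GC arrays or without naive replicate 1. The counts in this paragraph stand beside 20.5% higher over all genes tested. H2ax, the histone that marks double-strand breaks, rose by 3.55, the ligase Lig4 by 1.45, Parp1 by 1.04 and the end-binding Xrcc6 by 0.89. Of 13 homologous recombination and Fanconi genes, 12 rose (median 2.05, and 12 in the fit of the 6 arrays), among them the helicase Brip1 by 3.09, its partner Brca1 by 2.27 and Fancd2, the target of the Fanconi core complex, by 2.19. Fancb was not called (0.22). Of 10 checkpoint and p53 genes, 5 rose (median 0.77; 4 in the fit of the 6 arrays), with Clspn at 3.14, Chek1 at 2.94 and Wee1 at 2.52, all of the replication checkpoint. Mdm2, the p53 ligase, rose by 1.19, but was not called with the 6 arrays alone (adjusted p = 0.0872).

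Chromatin regulators were higher in most called cases. Of 18 tested, 10 rose and 2 fell (median 0.82; 10 and 1 in the fit of the 6 arrays). Among all genes tested 20.5% were higher and 9.35% lower. Ezh2, the methyltransferase of Polycomb complex PRC2 that GC cells depend on, was at 9.40, 9.89 and 9.72 against 6.06, 6.50 and 6.39 (3.35, SE 0.21, adjusted p = 6.6e-09). The other core PRC2 subunits Eed and Suz12 rose by 1.54 and 1.47. The maintenance DNA methyltransferase Dnmt1 was at 10.39, 10.33 and 10.40 against 8.27, 8.23 and 8.44 (2.06, SE 0.14), its partner Uhrf1 rose by 3.42 and the remodeller Hells by 4.15. Kdm6b, a demethylase that removes the PRC2 mark, fell by 1.04. The DNA methyltransferase Dnmt3b was called at -0.53 (adjusted p = 0.0223), but not in the fit of the 6 arrays (adjusted p = 0.108), nor without GC replicate 1 or 3 or naive replicate 1 or 3 (adjusted p 0.052 to 0.0937).

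Of the metabolic lists, the glycolytic and sterol ones had the larger medians. Their counts stand beside 20.5% higher over all genes tested. Glycolysis had 8 of 14 genes higher and none lower (median 1.21, and 8 in the fit of the 6 arrays). Tpi1 rose by 2.54, Ldha, which makes lactate, was at 10.37, 10.28 and 10.06 against 8.26, 8.30 and 8.44 (1.91, SE 0.20), and Pgk1 rose by 1.81. The glucose transporter Slc2a1 was at 8.45 ± 0.24 and 8.51 ± 0.75 (SD, n = 3 each) and overlapped. In cholesterol synthesis 9 of 13 genes rose (median 1.33; 8 in the fit of the 6 arrays), with Idi1 at 2.09 and Hmgcs1 at 1.34. Sc5d, with 2.57, rested on naive arrays that spread from 5.04 to 8.08.

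In oxidative phosphorylation 18 of 23 genes rose (median 0.92), 12 in the fit of the 6 arrays. This count and those of the next lists stand beside 20.5% higher over all genes tested. The ATP synthase subunit Atp5b was at 10.92, 11.14 and 11.09 against 9.80, 9.68 and 9.87 (1.27, SE 0.18), cytochrome c (Cycs) rose by 1.54 and the complex II subunit Sdhb by 1.16. Amino acid supply had 11 of 17 genes higher (median 0.95), 6 in the fit of the 6 arrays and 7 without GC replicate 1 or naive replicate 1. Its largest differences were those of the serine synthesis enzyme Psat1 (8.82, 8.86 and 8.77 against 6.40, 5.96 and 5.04, 3.02) and asparagine synthetase Asns (2.25). In the list of MYC targets and ribosome biogenesis genes, 9 of 20 rose (median 0.71; 6 in the fit of the 6 arrays), for example the pseudouridine synthase gene Dkc1 by 1.60 and nucleolin (Ncl) by 0.97. Myc itself was not called (9.41 ± 0.25 and 9.80 ± 0.48, SD, n = 3 each; -0.38, adjusted p = 0.371), and its groups overlapped.

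**Figure D4:**
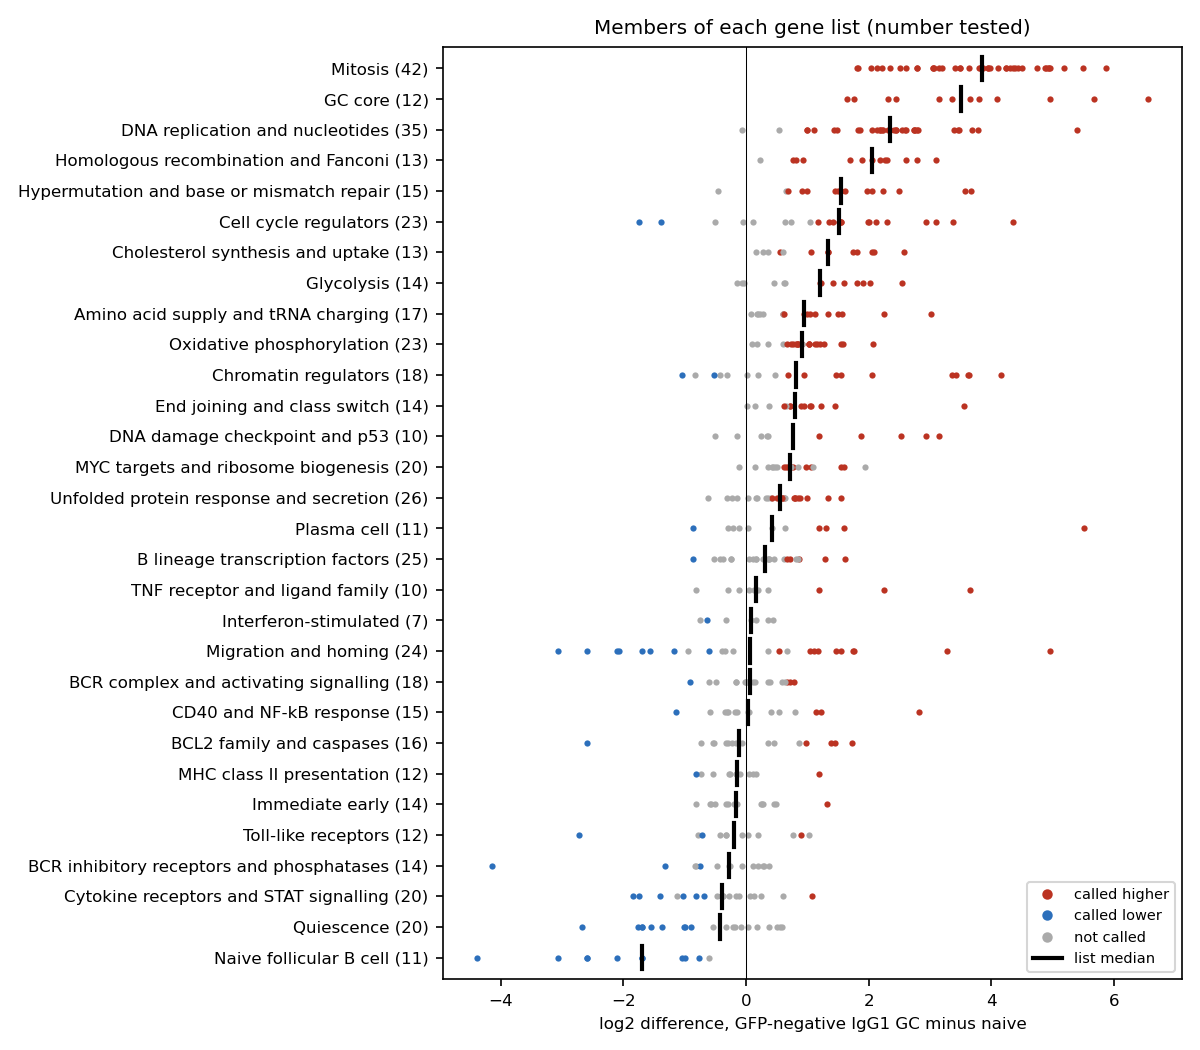
Log2 difference of each tested member (points) of the 30 pathway lists, sorted by the list median (bar); red points were called higher in GC cells, blue points lower and grey points were not called. The medians run from -1.69 in the follicular list to 3.85 in mitosis, against 0.07 over all genes tested.

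Counts for receptor signalling stand beside 20.5% higher and 9.35% lower over all genes tested. Of 18 genes of the B cell receptor complex and its activating signals, 3 rose and 1 fell (median 0.07), and 1 each in the fit of the 6 arrays. The phospholipase Plcg2 rose by 0.78 and the adaptor protease Malt1 fell by 0.92. The kinase Syk was not called, with 9.60 ± 0.11 and 10.19 ± 0.14 (SD, n = 3 each; -0.60, adjusted p = 0.0664). Among inhibitory receptors and phosphatases 3 of 14 fell and none rose (median -0.27; 4 fell in the fit of the 6 arrays). Ptpn22, a phosphatase that restrains antigen receptor kinases, was at 4.58, 5.01 and 4.72 against 9.21, 9.22 and 8.31 (-4.15, SE 0.31, adjusted p = 4.38e-08). The inhibitory receptor gene Pirb fell by 1.32 and Cd5 by 0.75.

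Among cytokine receptors most calls were lower. Of 20 receptor and STAT genes, 6 fell and 1 rose (median -0.39; 4 and 1 in the fit of the 6 arrays). Over all genes tested 9.35% fell and 20.5% rose. Il6st, the shared receptor chain of the IL-6 family, was at 5.35, 5.16 and 4.88 against 6.66, 7.75 and 6.52 (-1.85, SE 0.32), and Il10ra fell by 1.41. Tgfbr1, a receptor kinase for TGF-beta, was the 1 that rose, at 8.15, 8.26 and 8.72 against 7.09, 7.26 and 7.54 (1.08, SE 0.25). Of the Toll-like receptor list, 1 of 12 genes rose and 2 fell (median -0.19; 1 and 2 in the fit of the 6 arrays), beside the same shares over all genes tested. None rose without GC replicate 1 or 3 or naive replicate 3, and 1 fell without GC replicate 3. Tlr7, a sensor of single-stranded RNA, was at 4.03, 4.07 and 3.65 against 7.49, 6.03 and 6.42 (-2.73, SE 0.43, adjusted p = 0.000167).

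Genes tied to T cell help were called about as often as genes in general. The CD40 and NF-kB response list had 3 of 15 genes higher and 1 lower (median 0.03; 1 and 1 in the fit of the 6 arrays), against 20.5% and 9.35% of all genes tested. Cd86, a costimulatory ligand, was at 9.98, 9.58 and 9.36 against 6.22, 7.74 and 6.50 (2.82, SE 0.41), and Icosl, the ligand of ICOS, fell by 1.14 (adjusted p = 0.0111). Icosl was not called without naive replicate 1 (-0.94, adjusted p = 0.0524). The TNF family list of 10 genes had 3 higher (median 0.17, and 3 in the fit of the 6 arrays), against 20.5% of all genes tested. They were the cytokine genes Lta (2.25) and Tnf (1.19) and Fas, which follows the sort gate and is no finding. Tnf was not called without GC replicate 1 (adjusted p = 0.0554) or naive replicate 1 (adjusted p = 0.0621). Of 12 MHC class II genes 1 rose, the endosomal protease Lgmn (1.19), and 1 fell, against the same 20.5% and 9.35%. The median was -0.15, with 1 and 2 in the fit of the 6 arrays. None fell without GC replicate 2 or 3 or naive replicate 1 or 3. The class II chain H2-Ab1 was at 10.22 ± 0.50 and 10.05 ± 0.24 (SD, n = 3 each; 0.17, adjusted p = 0.712). Of 14 immediate early genes 1 was called (median -0.17), against 29.8% of all genes tested, and it was Egr1, at 1.32. Egr1 was not called without GC replicate 1, 2 or 3 or naive replicate 1 or 3 (adjusted p 0.0699 to 0.128).

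Migration genes changed in both directions. Of 24 tested, 10 rose and 8 fell (median 0.07; 6 and 8 in the fit of the 6 arrays). The shares over all genes tested were 20.5% higher and 9.35% lower. The signalling regulator Rgs2 rose by 3.28, the integrin chain Itgb1 by 1.75 and Gna13, the G protein that acts below S1pr2, by 1.05. The integrin chain Itgb7, which pairs for gut homing, was at 5.65, 5.36 and 5.31 against 7.37, 7.50 and 7.67 (-2.07, SE 0.16, adjusted p = 8.34e-08), and its partner Itga4 fell by 1.56. Gna13 was not called in the fit of the 6 arrays (adjusted p = 0.0608). The chemokine receptor Cxcr5 was not called (-0.21) and overlapped between the groups.

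Of 25 transcription factors of the B lineage, 5 rose and 1 was lower (median 0.31; 3 and 0 in the fit of the 6 arrays), near the 20.5% and 9.35% of all genes tested. Without naive replicate 2, 8 rose and none fell. Zbtb20, a BCL6-related repressor, rose by 1.61, Myb by 1.29 and Spi1, which encodes PU.1, by 0.86. The lineage factor Pax5 was at 10.95, 11.21 and 11.16 against 10.91, 11.65 and 11.48 and was not called (-0.24, adjusted p = 0.619). Irf4, which at high dose drives plasma cell differentiation, was called at -0.86 (adjusted p = 0.0354) with overlapping groups, and was not called with the 6 arrays alone (adjusted p = 0.109), without GC replicate 2 (adjusted p = 0.076) or 3 (adjusted p = 0.164) or without naive replicate 2 (adjusted p = 0.0979) or 3 (adjusted p = 0.105).

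Of 11 plasma cell genes 4 rose and 1, Irf4, was lower (median 0.42; 4 and 0 in the fit of the 6 arrays). Over all genes tested 20.5% rose and 9.35% fell. Jchain, which joins IgM and IgA into polymers, was at 10.98, 10.77 and 10.85 on the GC arrays and at 7.13, 4.77 and 4.18 on the naive arrays (5.51, SE 0.47, adjusted p = 2.04e-07). Its naive SD was 1.56, and in the fit of the 6 arrays its adjusted p was 0.00119. The elongation factor Ell2 rose by 1.59, the surface receptor Slamf7 by 1.30 and Tent5c, a poly(A) polymerase, by 1.19. Prdm1, the repressor that makes plasma cells, was near the floor (5.27 ± 0.44 and 4.85 ± 0.13, SD, n = 3 each; 0.42, adjusted p = 0.305), and Xbp1, which expands the secretory pathway, was not called (0.64, adjusted p = 0.0715). Of 26 genes of the unfolded protein response and secretion 14 rose (median 0.55), but 4 in the fit of the 6 arrays. That count was 7 to 9 without any 1 array other than naive replicate 2, and 17 without that one. Edem1, which sends misfolded proteins to degradation, rose by 1.54 and the translocon gene Ssr1 by 1.33. The chaperone Hspa5 was not called (0.41, adjusted p = 0.0717).

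Of 16 genes of the BCL2 family and caspases 4 rose and 1 fell (median -0.12), shares near those of all genes tested (20.5% and 9.35%), and the fit of the 6 arrays gave the same counts. Without GC replicate 3 or naive replicate 2, 2 fell. The survival gene Bcl2 was at 6.04, 6.90 and 6.35 against 8.76, 9.54 and 8.74 (-2.59, SE 0.45, adjusted p = 0.000426). The death-promoting members Bid, Bak1 and Bcl2l11 rose by 1.73, 1.45 and 1.38 and the apoptosome gene Apaf1 by 0.98. The other 11 genes were not called, among them the death-promoting Pmaip1 (-0.73) and the survival gene Bcl2l1 (0.36). Mcl1, on which GC cells depend for survival, was at 10.18 ± 0.05 and 10.35 ± 0.18 (SD, n = 3 each; -0.17, adjusted p = 0.421).

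Several of the genes with the largest differences belong to none of these lists. The histone gene H2ac4 was at 9.42, 9.98 and 10.11 against 5.62, 3.17 and 4.02 (5.56, SE 0.42). Copies of histone genes are nearly identical, so its probes may also read other copies. The locus AI506816, to which no function is assigned here, rose by 6.09. Zfp318, the zinc finger protein needed for IgD, was at 6.70, 6.75 and 7.24 against 10.27, 10.80 and 10.84 (-3.74, SE 0.23, adjusted p = 4.75e-09). Dpp4, a surface peptidase, was at 4.17, 4.16 and 3.95 against 8.05, 8.49 and 7.66 (-3.97, SE 0.30). The phosphatase receptor Ptprj fell by 2.90, the GTPase-activating protein Arap2 by 3.74, and the adaptor Sla, which dampens receptor signals, by 3.52. The interferon-inducible Ifi203 (-3.52), Plac8 (-3.43), the annexin partner S100a10 (-3.04) and the surface marker Ly6d (-2.96) fell as well. Of 7 interferon-stimulated genes tested 1 was lower, against 9.35% of all genes tested. It was Irf9 (-0.64, adjusted p = 0.0205), and none was called in the fit of the 6 arrays or without GC replicate 2 or 3. Irf9 was not called without naive replicate 1 either (adjusted p = 0.0779).

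Markers of other cell types were lower in GC cells or not called, where 9.35% of all genes tested were lower. Many of the markers were dim, and the 7839 genes too dim to be tested had a median difference of -0.28. The part of that shift in the counts below was not tested. Of 7 tested macrophage and dendritic cell markers of 15 with a probe set, 4 fell and none rose (2 fell in the fit of the 6 arrays, and 1 rose without naive replicate 2). The summed linear signal of all 15 was 411 to 489 on the GC arrays and 749 to 1184 on the naive arrays. Tyrobp, the signalling adaptor of many myeloid receptors, was at 5.97, 5.72 and 5.69 against 8.24, 8.75 and 8.30 (-2.64, SE 0.24), and Siglech, a marker of plasmacytoid dendritic cells, was at 4.77 ± 0.03 and 6.70 ± 0.96 (SD, n = 3 each; -1.93). The defining myeloid markers Csf1r, Itgam, Itgax and Adgre1 were at or below 4.83 on all 6 arrays and were not tested. Of 9 tested T cell markers 2 fell, Cd4 (-0.80) and Cd8a (-0.85), also 2 in the fit of the 6 arrays and 4 without naive replicate 3. The sums over all 12 with a probe set were 475 to 607 and 804 to 1014. Cd3e was at 6.80 ± 0.11 and 6.82 ± 0.52 (SD, n = 3 each; -0.02). Of 7 tested stromal and endothelial markers 3 fell, among them Pecam1 (-1.69) and Ccl19 (-1.16), and 2 in the fit of the 6 arrays. The endothelial markers Cdh5 and Kdr did not follow Pecam1. Cdh5 was not called (0.12, adjusted p = 0.579) and Kdr was too dim to be tested. The sums over all 11 with a probe set were 710 to 744 and 1248 to 2074. Neutrophil, natural killer, basophil and erythroid lists had 3 of 6, 0 of 2, 1 of 2 and 1 of 3 genes lower, none of them in the fit of the 6 arrays. The part of such cells in the lower genes, among them Dpp4, S100a10 and Plac8, was not tested.

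How the change from the naive cell lay within the germinal centre was read from the DZ and LZ cells of the second experiment, which share no array with the comparison above. Between GFP-negative DZ and LZ cells 286 of 11050 genes differed (2.59%), 176 higher in DZ (1.59%) and 110 higher in LZ (0.995%). Of the 2469 GC-higher genes tested in both, 141 were higher in DZ (5.71%) and 18 in LZ (0.729%). Of the 894 GC-lower genes, 3 were higher in DZ (0.336%) and 35 in LZ (3.91%). Seen from the zones, 80.1% of the DZ genes were higher in GC than in naive cells, and 32.1% of the LZ genes were lower. The zone counts rest on few arrays: without DZ replicate 1 or 3 or LZ replicate 2 or 3 the 286 became 102, 130, 101 and 127.

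Mitosis genes differed between the zones too. Of 42, 23 were higher in DZ and none in LZ, for example Ccnb2, with means of 10.66 in DZ and 9.13 in LZ (1.53, adjusted p = 0.00209), and Plk1 (1.60, adjusted p = 0.00769). Of 35 replication genes 3 were higher in DZ, among them Rrm1 (0.77, adjusted p = 0.0358), and Top2a was not called (0.52). Hmces (1.71, adjusted p = 0.00041) and Polh (1.03, adjusted p = 0.00751) were higher in DZ, as was Jchain (0.98). Mybl1, the gene with the largest difference from naive cells, did not pass between the zones (0.16, adjusted p = 0.571).

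Some genes that were lower in GC than in naive cells were higher in LZ than in DZ cells. Zfp318 had means of 6.21 in DZ and 8.09 in LZ (-1.88, adjusted p = 0.00769), Gpr183 differed by -1.22 (adjusted p = 0.0164) and Cr2 by -0.88 (adjusted p = 0.00698). Cd55 went the other way, higher in DZ by 1.24 (adjusted p = 0.0293). Cd86, a sort marker of the zones, was higher in LZ by construction (-1.05).

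**Figure D5:**
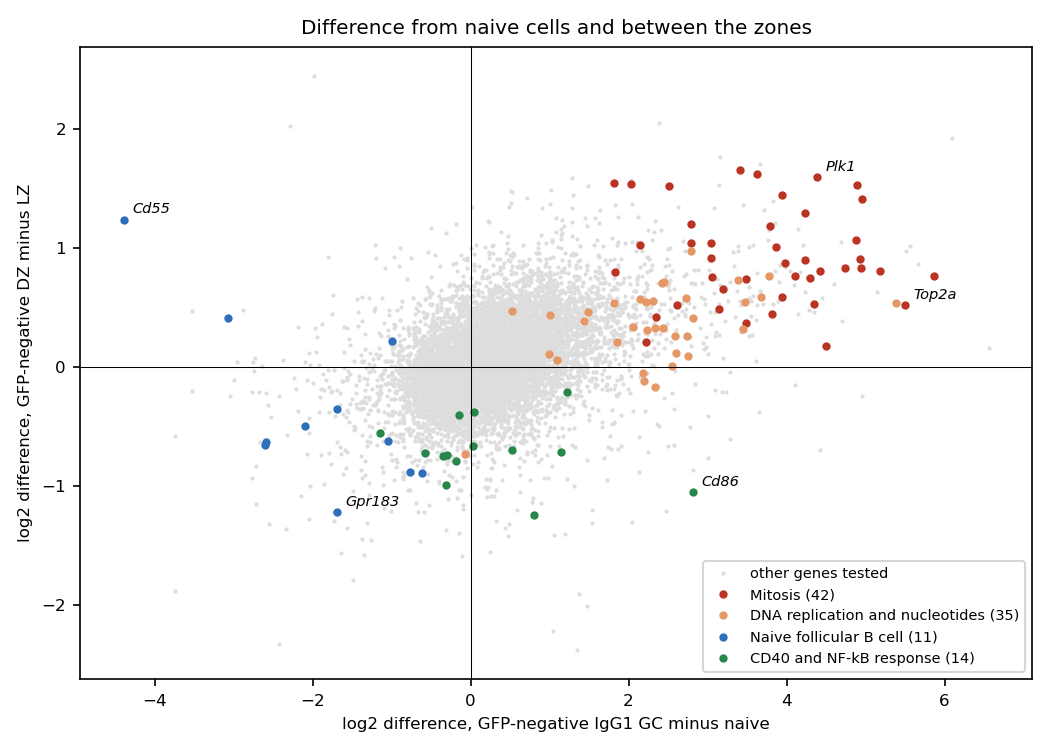
Log2 difference between GFP-negative IgG1 GC and naive cells (x axis) against that between GFP-negative DZ and LZ cells (y axis), for genes tested in both; coloured points are members of 4 lists. The mitosis genes lie to the upper right (Plk1 at 4.39 and 1.60), and Cd86 lies to the lower right (2.82 and -1.05).

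For the other GC cells of the first experiment no gene was called against GFP-negative IgG1 GC cells. In limma 0 of 12098 genes were called against GFP-positive IgG1 GC cells (0.0%) and 0 against IgE GC cells (0.0%), with 265 and 205 at an unadjusted p under 0.05. Both counts are below the share of 0.05 that would pass if no gene differed. Levels of Mki67 were 10.78 ± 0.11 in GFP-negative, 10.73 ± 0.07 in GFP-positive and 10.97 ± 0.02 in IgE GC cells (SD, n = 3 each). Bcl6 was at 11.03 ± 0.14, 11.03 ± 0.07 and 10.94 ± 0.03, and S1pr1 at 7.29 ± 0.32, 6.92 ± 0.46 and 7.51 ± 0.31. Plac8 was at 5.38 ± 0.20 in GFP-negative against 4.29 ± 0.47 and 4.49 ± 0.25 in the others, differences that did not pass (-1.09 and -0.90). With 3 arrays per group small differences may be missed.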

How the data were processed

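RNA of sorted cell pools was measured on Affymetrix Mouse Gene ST arrays, 30 in all, 3 per group in the comparison reported. Each began as 2 ng of total RNA, which isothermal whole-transcriptome amplification turned into cDNA, and 5 ug of that was labelled, per the labels' protocols. The deposited values are log2 signals, made by the authors with robust multi-array averaging (RMA, which corrects background, normalizes quantiles and summarizes probes) under R 2.15.2, as the submitters' processing notes list. Such values hide differences in total RNA per cell, and dim genes have compressed folds. A joint normalization of both experiments, a date and a batch are not given in the sources used here. No level was therefore set across experiments, and batch effects could not be tested. The number of arrays limits the precision.

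Of 34760 probe sets, 21640 had 1 symbol in the platform annotation, 1321 several and 11799 none, and the last pair of classes was left out. RefSeq gene IDs (GRCm38.p6) matched 21553. Each of 19937 genes was represented by the probe set with the highest mean over 30 arrays, and tested if above the array median on at least 2 arrays (first experiment) or 3 arrays (second), leaving 12098 and 11050 genes. Linear models over all arrays of an experiment were fitted with limma 3.58.1 (lmFit, eBayes) in R 4.3.3, with Benjamini-Hochberg adjustment of p over all genes tested. Levels carry the SD over arrays and differences the SE of the fit. An exact permutation test of 3 against 3 arrays cannot go below p = 0.1 and was not used. The arrays were not paired by replicate number: deviations of same-numbered GC and naive arrays correlated at -0.039, 0.0182 and 0.006. These values cannot show whether same-numbered pools shared mice or a sort day. Tables and figures were made with pandas 2.3.3 and matplotlib 3.10.9 in python 3.11.15.

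The 37 gene lists held 638 genes from textbook knowledge, of which 593 had a single-symbol probe set; some genes are in several lists. The comparison, its genes and the lists were chosen with earlier results of these data known. Genes named are the 12 largest increases and decreases among called genes whose groups did not overlap, called members of each list with large differences, members that were not called, and the sort markers.

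Promoter windows of 300 bases were taken from RefSeq, with the first listed start per gene, and matched 9623 of 12098 genes by symbol. Other settings were tried, as given at the end: fewer arrays, further normalization, other filters, array weights, a trended prior, a replicate block and leaving out each array.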

Additional observations from a re-analysis of the deposited data

How the results depend on the processing

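The 3606 genes called against naive cells became 2061 with only the 6 arrays in the fit (1646 higher, 415 lower) and 1714 at a threshold of 2-fold as well. A further quantile normalization gave 1810 higher and 1171 lower, and moved the median of all genes from 0.07 to -0.02. No filter gave 2451 and 2253, with a median of -0.28 over the 7839 genes that had not been tested. Weights per group, chosen after seeing the data, gave 1933 and 623. Leaving out 1 array gave 2475 to 4613 genes. The lower genes were 630, 625 and 697 without GC replicate 1, 2 or 3, and 1726 without naive replicate 2. With the replicate block, a number that is not known to pair the arrays, 2500 genes were higher and 1079 lower. Against IgE GC cells array weights called 1 gene, and against GFP-positive cells the fit of the groups compared called 1. Leaving out 1 array called 0 in both. Between the zones the 286 genes became 144 with only the groups compared and 475 with array weights, 324 with the replicate block, 284 after quantile normalization (131 and 153), and 101 to 225 without 1 array. Of 165 named genes, 143 were called. None of these changed sign in a called setting, and 6 lost the call with only the 6 arrays: Cr2, Gna13, Irf4, Irf9, Mdm2 and Dnmt3b. Irf4 was also lost with the replicate block (adjusted p = 0.0585) and Egr1 and Dnmt3b after quantile normalization (adjusted p = 0.0931 and 0.0744). The mitosis and germinal centre lists had 42 and 12 genes higher in each of these settings. Secretion (14 higher) gave 4 higher and 2 lower after quantile normalization, end joining (10) gave 6 and amino acid supply (11) gave 6. The list of MYC targets and ribosome biogenesis (9) gave 5. The same normalization moved immediate early genes from 1 higher and 0 lower to 0 and 3, receptor activating signals from 3 and 1 to 1 and 2, Toll-like receptors from 1 and 2 to 0 and 4, and MHC class II from 1 and 1 to 1 and 4. The cause of these changes was not tested. Dim genes near the floor have differences that understate folds.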

Other observations

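A class of probe sets outside the lists above was picked after its values had been seen, and it is given as a description. Of 107 miRNA hairpin genes tested, 37 were lower in GC than in naive cells (34.6%) and 0 were higher, with a median difference of -0.46, against 9.35% lower over all genes tested. In the fit of the 6 arrays 13 were lower and 0 higher, where 415 of all 12098 genes tested were lower. Hairpin probe sets read precursor transcripts rather than mature miRNAs. The median of the 7839 genes too dim to be tested was -0.28, and array medians were 5.28 to 5.31 in GC and 5.38 to 5.47 in naive cells. The part of such dim signal in the hairpin count was not tested.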
